A study of Mus musculus with 65 samples.

Results

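The first kilobases downstream of promoters that carry a peak of initiating or paused RNA polymerase II were followed on newly replicated DNA in mouse embryonic stem cells. Transcription through these stretches was not measured. A transcription start site (TSS) was taken where the 1 kb around its midpoint overlapped a deposited peak of RNA polymerase II phosphorylated on serine 5 of its C-terminal repeat (S5P). The members were the 1 kb windows lying wholly 1500 to 5000 bp downstream of such a TSS, by its strand. Windows within 1000 bp of another TSS midpoint, or overlapping a peak of steady-state chromatin, were left out. The rule kept 18332 of the 5451088 windows of the table, or 0.336%. They lay at 4809 TSSs on 21 chromosomes, with a median of 5 overlapping windows and at most 6 per TSS, and 501 TSSs had 1 window. Both the S5P peaks and the steady-state peaks were measured values, so neither is a finding here.

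RNA polymerase II is phosphorylated on serine 5 by the CDK7 kinase of TFIIH as it begins transcription, pauses a short way downstream, and enters the gene body once P-TEFb (CDK9 with cyclin T) has acted on the polymerase and on the pausing factors DSIF and NELF. DRB inhibits CDK9 and so holds polymerase at the pause, whereas triptolide binds the XPB helicase of TFIIH and blocks initiation. The passage of a replication fork strips chromatin of polymerase and transcription factors, and nucleosomes are laid down on both daughter strands, after which the pattern of open sites has to be set up again.

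The cells were E14TG2a, an established mouse embryonic stem cell line. In repli-ATAC-seq, Tn5 transposase cuts open chromatin and DNA made during a pulse of EdU, a thymidine analogue, is then captured. The 36 libraries of the inhibitor experiment form 12 groups of 3. Cells had received DMSO (the solvent control), DRB or triptolide for 2 h before 20 uM EdU was added for 10 min. They were taken at once (nascent) or after 2 h in 10 uM thymidine (2 h), and each sample gave the captured EdU fraction and the unbound fraction, which is the supernatant of the capture. The labels give neither the inhibitor doses nor whether the inhibitors stayed in the medium during the chase. The labels do not say that the libraries of a group came from separate cultures, so the tests measure the spread between these libraries, which may be technical. The S5P peaks came from ChIP-seq with 2 samples.

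The values were RPM (reads scaled to a common library total) in 1 kb windows, and library totals recovered from them ran from 1.30 to 5.55 M reads in the EdU and from 2.35 to 14.4 M in the unbound libraries. The members that start on a whole kb, which do not overlap each other, held 0.461% to 0.817% of each EdU library's reads. Stretches covered by the other members only are not counted in that share. RPM is relative to the library total, so the members were also set against 2378854 gene desert windows, which lay over 50 kb from any TSS and over 1000 bp from every peak. The cell type labelled was checked against marker genes: an S5P peak lay at the TSS of 7 of 10 embryonic stem cell markers, against 2 of 9 primitive endoderm, 2 of 6 trophectoderm, 1 of 9 fibroblast, and 6 of 10 neural and germ layer markers found among the TSSs.

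Of the 4809 member TSSs, 4283 could be paired with a gene name of RefSeq and 4000 with a protein-coding gene, 160 of them having more than 1 gene within reach. Promoters of 6 genes are shown because their downstream regions carry the results below: Rps23, Rps24 and Rpl34 encode ribosomal proteins and were lower after triptolide, while Mdm2 (the ubiquitin ligase that turns over p53), Rmnd1 (a factor of mitochondrial translation) and Ppm1j (a protein phosphatase) were higher with at least 1 inhibitor. Each is the 100 bases before the RefSeq start in GRCm38.p6, the assembly of mm10, read 5′ to 3′ on the gene's strand. They lie at chr13:90923022-90923121 (plus strand), chr14:24490578-24490677 (plus), chr3:130730399-130730498 (minus), chr10:117710759-117710858 (minus), chr10:4432389-4432488 (minus) and chr3:104780956-104781055 (plus). Capitals mark the GC box, spelled GGGCGG, on either strand. They also mark the CCAAT box and, spelled TATAAA, the TATA box.
Rps23: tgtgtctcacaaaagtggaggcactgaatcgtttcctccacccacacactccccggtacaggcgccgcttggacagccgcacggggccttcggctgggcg
Rps24: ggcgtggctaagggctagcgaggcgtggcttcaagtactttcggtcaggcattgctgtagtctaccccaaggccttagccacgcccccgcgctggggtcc
Rpl34: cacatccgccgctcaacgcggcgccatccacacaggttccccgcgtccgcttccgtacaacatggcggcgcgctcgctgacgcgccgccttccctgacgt
Mdm2: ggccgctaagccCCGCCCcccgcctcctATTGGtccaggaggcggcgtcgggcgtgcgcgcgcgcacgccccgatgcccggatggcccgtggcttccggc
Rmnd1: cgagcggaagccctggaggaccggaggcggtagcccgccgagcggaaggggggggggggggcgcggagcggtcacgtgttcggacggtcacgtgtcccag
Ppm1j: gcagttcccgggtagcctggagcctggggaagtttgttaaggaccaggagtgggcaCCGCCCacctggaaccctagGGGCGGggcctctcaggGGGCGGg
The windows shown of Rps23, Rps24, Rpl34 and Rmnd1 held none of these letters.

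Searched over the 250 bases before the start, a GC box lay in 69.5% of the 3208 coding members whose promoter the RefSeq table held, a CCAAT box in 35.8% and a TATA box in 5.77%. The same shares over all 32851 RefSeq promoters were 32.7%, 33.8% and 12.4%, and over 10180 coding genes without an S5P peak 36.7%, 36.7% and 14.8%. The coding members had a median of 20 CG dinucleotides and 63.6% GC in that stretch, against 7 and 53.2% at the S5P-free genes. The letters are a description of the sequence, and their absence from a window says nothing of factor binding.

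The members were mostly inside their genes. Of 16392 windows with a named gene, 14806 (90.3%) lay wholly inside it and 1586 reached past its end, wholly or in part. At S5P-free TSSs 62.3% of the windows chosen alike lay wholly inside. The coding genes of the members had a median length of 23686.5 bp, against 15530.5 bp at S5P-free TSSs, and 525 of the 4000 were under 5 kb, so that the outer windows of such genes reached beyond them. Their promoters were open at steady state: 99.5% of member TSSs carried a steady-state peak in the central 1 kb, 83.4% a nascent peak and 97.8% a 2 h peak, against 44.2%, 22.9% and 37.5% at S5P-free TSSs.

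Leaving out steady-state peaks removed 7231 of the 26946 candidate windows, and closeness to another TSS removed 1383. What remained still overlapped peaks of newly replicated chromatin: 4.50% of members (825 windows) overlapped a nascent peak, 4.86% (891) a 30 min peak, 2.43% a 1 h peak and 1.12% (205) a 2 h peak. At S5P-free TSSs the shares were 1.57%, 0.964%, 0.671% and 0.559%. These peaks come from an untreated time course, with 1 list per time and no depth attached, and the lists grew from 47341 peaks (nascent) to 106983 (2 h) and 166636 (steady state). With windows under steady-state peaks put back, the shares of 25563 windows were 13.5%, 19.5%, 18.2%, 17.9% and, at steady state, 28.3%. The nascent share was thus above the 1 h and 2 h shares among the members and below them with those windows included. No test was made of these overlaps.

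With DMSO, the members stood at 3.85-fold the gene desert level on nascent DNA and 3.65-fold after 2 h, and did not differ detectably between the times. On nascent DNA the 3 libraries were at 4.06, 3.86 and 3.64 times the desert level. After 2 h they were at 3.93, 3.88 and 3.15 times that level. The groups overlapped, and the log2 difference was -0.08 (two-sided exact permutation test over libraries, p = 0.7). In RPM the members went from 0.842, 0.828 and 0.785 to 0.525, 0.517 and 0.501, a log2 difference of -0.67 with no overlap. Here and below, 3 libraries against 3 cannot give a two-sided exact p under 0.1, which was the p found (exact permutation, p = 0.1). Over the same time the TSS centres of the members went from 3.54 to 3.97 times the member level to 14.9 to 16 times it.

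The limits of the rule cut through a level that changed little with distance. In DMSO, windows starting in the first 500 bp inside the near limit stood at 3.89-fold (nascent) and 3.83-fold (2 h) the desert level, and those starting in the 500 bp just outside it at 3.91-fold and 3.92-fold. At the far limit the values were 3.84-fold and 3.54-fold just inside and 3.84-fold and 3.59-fold just outside. Windows within the limits that overlapped a steady-state peak, and so were left out, stood at 7.94-fold and 20.8-fold.

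**Figure D1:**
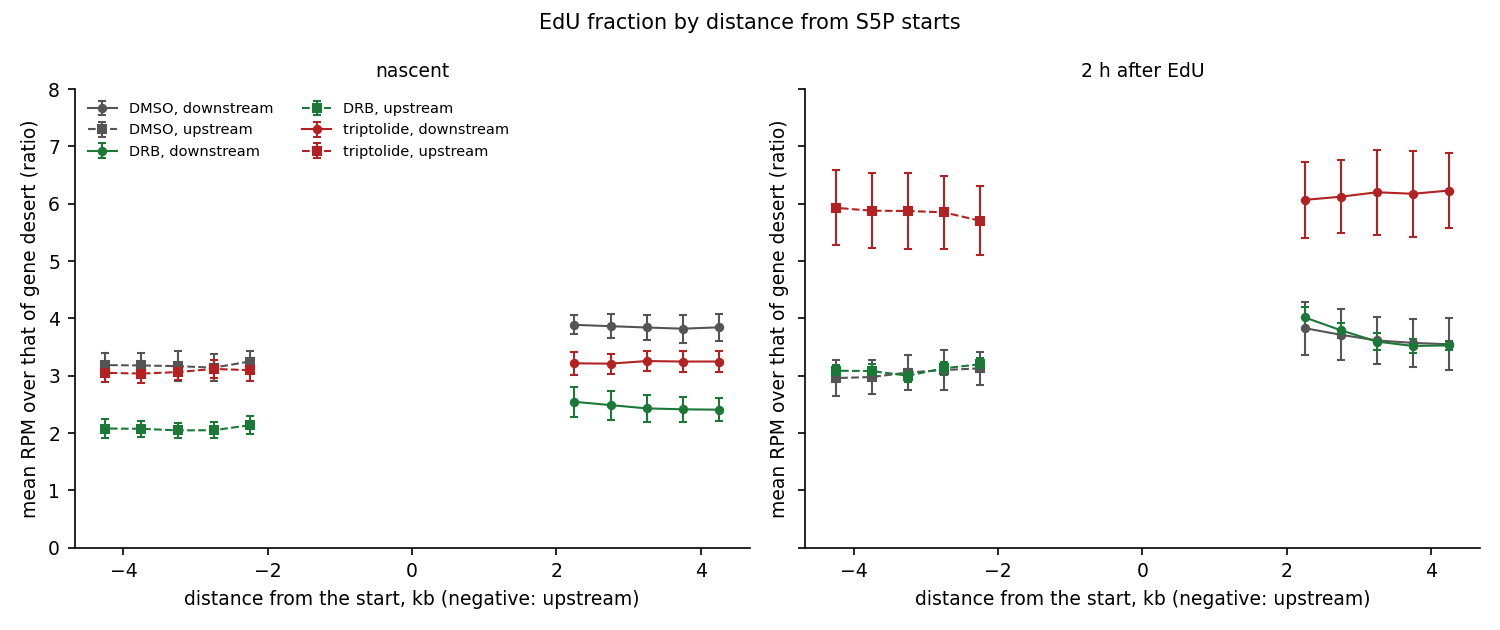
Mean RPM over the gene desert mean (y axis, ratio) against the distance of the window from the TSS (x axis, kb, upstream negative) in the EdU fraction, by time (panels) and treatment (colours); points are means and bars the SD of 3 libraries, circles downstream and squares upstream. The DMSO level is 3.89 at the near limit of the rule in nascent chromatin and 3.83 after 2 h, and the 2 h triptolide level is 6.07 there.

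With triptolide the members stood above the controls on 2 h chromatin and not on nascent chromatin. Against the desert, the 2 h triptolide libraries were at 5.87, 6.95 and 5.67 times, and the 2 h DMSO libraries at 3.93, 3.88 and 3.15. All 3 triptolide libraries were above all 3 controls, with a log2 difference of 0.76 (exact permutation, p = 0.1). In plain RPM the triptolide libraries were at 0.846, 0.885 and 0.844, again above every control, with a log2 difference of 0.74 (exact permutation, p = 0.1). On nascent DNA the triptolide libraries were at 3.44, 3.09 and 3.18 times the desert level, below the 3 controls, with a log2 difference of -0.25 (exact permutation, p = 0.1), while in RPM (0.787, 0.755 and 0.743) they overlapped the controls (log2 difference -0.10, exact permutation, p = 0.2).

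DRB gave another order. On nascent DNA the DRB libraries were the lowest, at 2.48, 2.68 and 2.21 times the desert level, with a log2 difference of -0.65 from DMSO and no overlap (exact permutation, p = 0.1). In RPM they were at 0.688, 0.720 and 0.632, also below the 3 controls, with a smaller log2 difference of -0.27 (exact permutation, p = 0.1). The mean desert level itself was higher with DRB, at 0.277 RPM against 0.213 with DMSO. After 2 h the DRB libraries stood at 3.61, 3.83 and 3.62 times the desert level, within the range of the controls, and the log2 difference was 0.02 (exact permutation, p = 1.0). In RPM the 2 h DRB libraries were at 0.612, 0.619 and 0.573, above the 3 controls, with a log2 difference of 0.22 (exact permutation, p = 0.1). The 2 scalings thus gave different answers for DRB after 2 h.

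**Figure D2:**
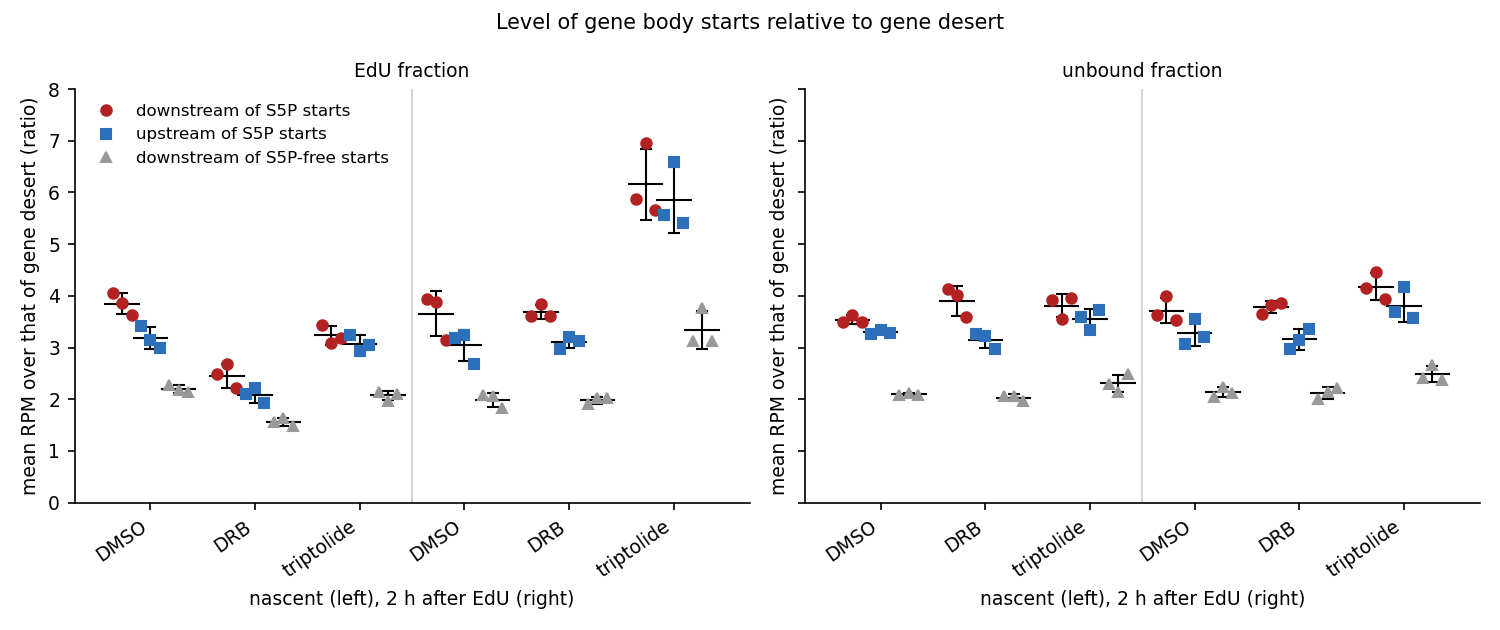
Mean RPM over that of gene desert windows (y axis, ratio) for the members (circles), windows upstream of the same TSSs (squares) and windows downstream of S5P-free TSSs (triangles), by fraction, time and treatment (x axis); points are libraries, lines the mean and bars the SD of 3. Among the members' EdU values the 2 h triptolide libraries, at 5.67 to 6.95, are the highest and the nascent DRB libraries, at 2.21 to 2.68, the lowest.

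The higher 2 h level with triptolide was also seen outside the members. Windows upstream of the same TSSs went to 5.56, 6.58 and 5.40 times the desert level after 2 h with triptolide, and downstream windows of S5P-free TSSs from 2.08, 2.06 and 1.84 with DMSO to 3.13, 3.76 and 3.12 with triptolide. The ratio of members to S5P-free windows did not differ detectably after 2 h: the log2 difference was 0.01 for triptolide and 0.03 for DRB, with overlapping groups. On nascent DNA that ratio was 1.77, 1.78 and 1.70 with DMSO, 1.61, 1.57 and 1.51 with triptolide and 1.59, 1.63 and 1.50 with DRB. Both inhibitors were below every control there, with log2 differences of -0.17 and -0.16 (exact permutation, p = 0.1 each).

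The side of the promoter on which the gene lies had the higher level, by less with triptolide. With DMSO the members exceeded the windows upstream of the same TSSs, 93.9% of member and 35.5% of upstream windows overlapping a RefSeq gene. The 13862 upstream windows exclude 5146 that were members through another TSS. Windows downstream of another S5P TSS were thus removed from the upstream side only, which affects both the ratio and the 35.5%. How far it raised the ratio was not tested. The ratio of downstream to upstream was 1.19, 1.23 and 1.22 on nascent DNA and 1.23, 1.20 and 1.17 after 2 h. With triptolide it was 1.06, 1.06 and 1.04 on nascent DNA and 1.06, 1.05 and 1.05 after 2 h. Every triptolide library lay below every control at both times, with log2 differences of -0.20 and -0.19 (exact permutation, p = 0.1 each). With DRB the ratio was 1.18, 1.21 and 1.15 on nascent DNA and 1.21, 1.20 and 1.16 after 2 h, overlapping the controls (log2 differences -0.04 and -0.01).

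In the unbound fraction this ratio stood above the controls in nascent samples with DRB, and overlapped them with triptolide. On nascent samples it was 1.07, 1.09 and 1.06 with DMSO and 1.27, 1.24 and 1.21 with DRB, a log2 difference of 0.21 without overlap (exact permutation, p = 0.1). With triptolide it was 1.09, 1.07 and 1.06, overlapping the controls. After 2 h each inhibitor overlapped DMSO, while every DRB library (1.23, 1.22 and 1.15) lay above every triptolide library (1.12, 1.07 and 1.10). The DMSO ratio was then 1.18, 1.12 and 1.10, above its nascent values (log2 difference 0.08, exact permutation, p = 0.1).

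**Figure D3:**
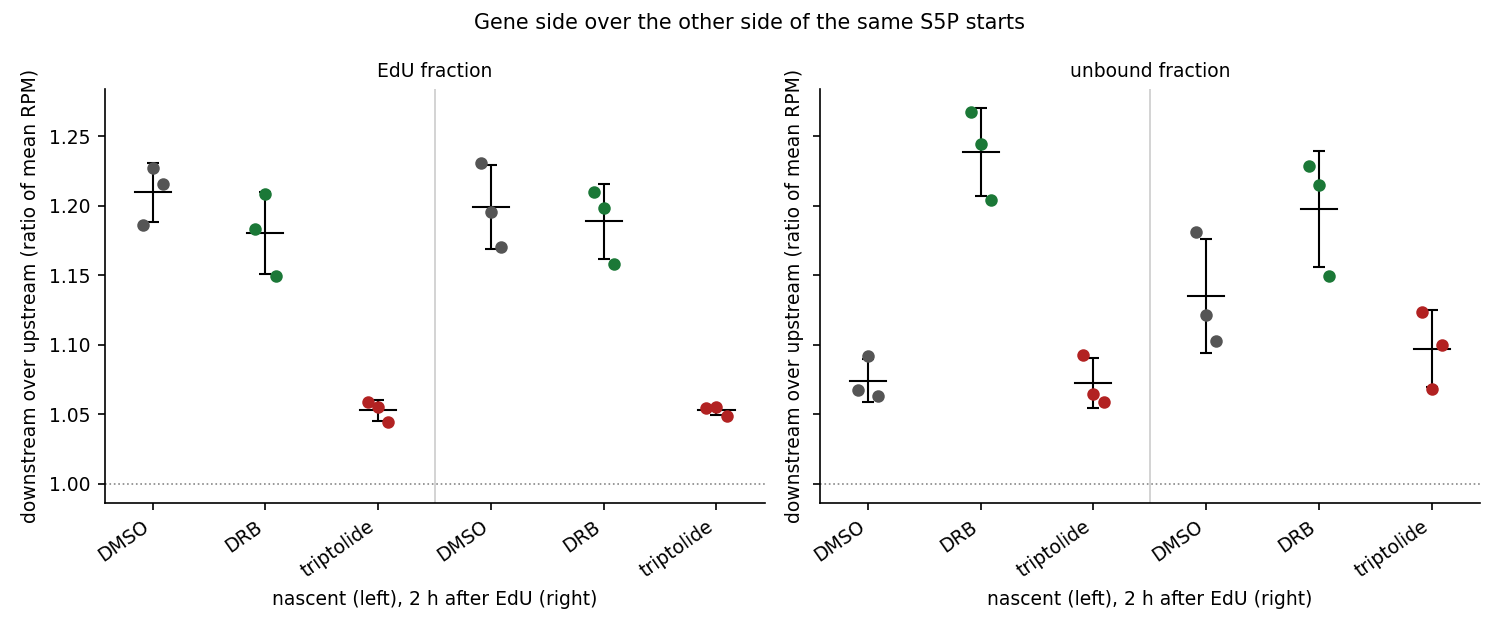
Ratio of the members' mean RPM to that of windows 1500 to 5000 bp upstream of the same TSSs (y axis) for each library, by fraction, time and treatment (x axis); points are libraries, lines the mean and bars the SD of 3. In the EdU fraction the triptolide libraries lie at 1.04 to 1.06 at both times, below all DMSO and DRB libraries, which lie at 1.15 to 1.23. Upstream windows that are members through another TSS are left out.

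Set against the unbound library of the same sample, the EdU level over desert was lower with both inhibitors on nascent DNA, by a log2 difference of -0.36 for triptolide and -0.79 for DRB. After 2 h it was higher with triptolide, by 0.59, and not detectably different with DRB, at -0.01 (exact permutation, p = 0.1 for the first 3 and p = 1.0 for the last). In the unbound fraction alone the members over desert overlapped the controls with each inhibitor at each time. In plain RPM every unbound inhibitor library was above every control of its time. The log2 differences were 0.15 for triptolide and 0.29 for DRB in nascent samples, and 0.36 and 0.18 after 2 h (exact permutation, p = 0.1 each). The 2 scalings thus gave different answers in the unbound fraction.

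The level of the members varied with the length of their gene and with peaks. After 2 h with DMSO, windows inside genes under 10 kb (2727 windows) stood at 4.67-fold the desert level, those inside genes of 10 to 50 kb (7656) at 3.70-fold and those inside genes of 50 kb or more (4423) at 2.88-fold. With triptolide the 3 classes stood at 7.95-fold, 6.41-fold and 4.63-fold, and with DRB at 4.94-fold, 3.86-fold and 2.71-fold. Members whose TSS had a nascent peak stood at 3.79-fold and those without one at 3.0-fold with DMSO after 2 h, and at 6.64-fold and 3.77-fold with triptolide. The 1431 members that themselves overlapped a nascent or 30 min peak were at 7.61-fold with DMSO and 14.1-fold with triptolide. These are means of 3 libraries, given as a description.

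Windows past the end of short genes were set against those wholly inside genes. This measure was chosen after its values were seen. Past the end means not wholly inside, so windows that cross the gene's end are included, and they were not separated. The windows inside came from genes of any length, and their level fell with gene length. With DMSO, windows past the end stood at 3.91-fold the desert level on nascent DNA and 4.28-fold after 2 h. Those inside genes under 10 kb stood at 5.03-fold and 4.67-fold. After 2 h the values past the end and inside such genes were 3.60-fold and 4.94-fold with DRB. With triptolide they were 6.29-fold and 7.95-fold. After 2 h with DMSO the mean RPM past the end was 1.15, 1.21 and 1.17 times that inside genes of any length. With DRB it was 0.945, 0.994 and 0.972 times, and with triptolide 0.990, 1.03 and 1.04 times. Both inhibitors were below every control, with log2 differences of -0.28 for DRB and -0.21 for triptolide (exact permutation, p = 0.1 each). On nascent EdU chromatin the 3 DMSO libraries were at 1.05, 0.998 and 0.965, and both inhibitors overlapped them. From nascent to 2 h the DMSO ratio was 0.23 higher on the log2 scale, without overlap (exact permutation, p = 0.1).

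In the unbound fraction the same ratio was above 1 with DMSO at both times. With DMSO the ratio was 1.31, 1.48 and 1.46 in nascent samples and 1.27, 1.45 and 1.36 in 2 h samples. With triptolide it was 1.02, 1.05 and 1.11, then 0.961, 1.02 and 0.992, and with DRB 1.07, 1.11 and 1.04, then 0.956, 1.02 and 0.969. All 4 inhibitor groups lay below their controls without overlap, by log2 differences of -0.42 and -0.46 for triptolide and -0.40 and -0.47 for DRB (exact permutation, p = 0.1 each). Here too the windows inside came from genes of any length. With DMSO those inside genes under 10 kb stood at 4.57-fold the desert level in nascent samples and 4.86-fold after 2 h. Windows past the end stood at 4.85-fold and 4.92-fold. With triptolide the values were 4.96-fold and 5.28-fold inside such genes, and 4.02-fold and 4.14-fold past the end. With DRB they were 5.07-fold and 4.99-fold, and 4.21-fold and 3.74-fold. These values were not tested.

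**Figure D4:**
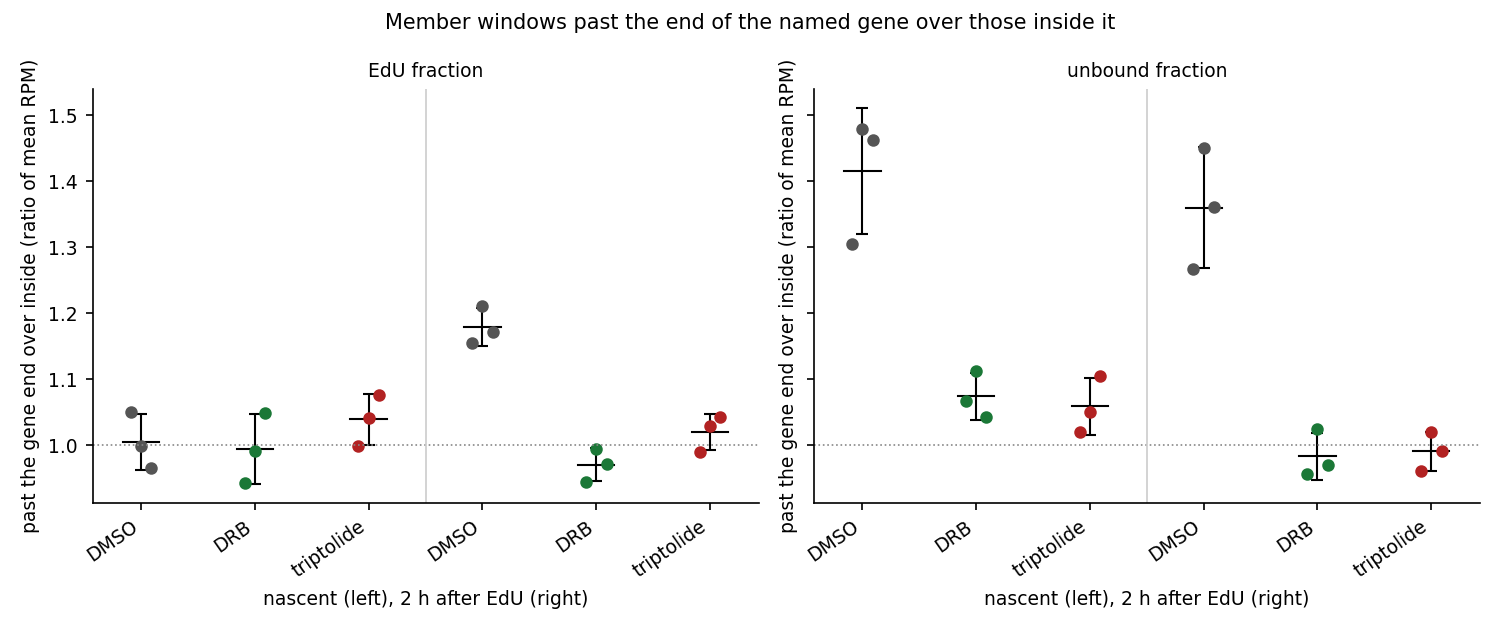
Ratio of the mean RPM of 1586 members past the end of their named gene, including any that cross it, to that of 14806 members wholly inside it (y axis) for each library, by fraction, time and treatment (x axis); points are libraries, lines the mean and bars the SD of 3. In the unbound fraction the DMSO libraries lie at 1.27 to 1.48 and all inhibitor libraries at or below 1.11. The members inside come from genes of any length, those past the end from short genes.

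Single members were compared as regions, 1 per TSS, by the mean RPM over its windows on the log2(RPM + 0.25) scale with limma, in 1 fit of all 18 EdU libraries and 27816 downstream regions, S5P or not. Of these, 4795 were members, the other 14 failing the requirement of a read in 3 libraries. Calls were made at a Benjamini-Hochberg adjusted p of 0.05 over all regions. Where a group's values were near 0, the size of a log2 difference depends on the added 0.25. After 2 h with triptolide 576 member regions rose and 34 fell, and the background of calls over all regions was 9.71%. The median log2 difference was 0.38 over the members and 0.17 over all regions. Leaving out any 1 of the 6 libraries lowered the number called from 610 to between 323 and 427, the lowest without replicate 2 of triptolide. Scaled to the gene desert the split was 763 higher and 75 lower, and centred on the median region it was 320 and 53.

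Far fewer regions were called for DRB. After 2 h, 34 member regions rose and 14 fell (background 0.471%), with a median of 0.05 against 0.03 over all regions. That split was 29 and 27 when scaled to the desert and 21 and 15 when centred. Without replicate 1 of 2 h DMSO 35 were called, and without any other of the 6 libraries between 14 and 27. On nascent DNA 0 members were called for triptolide (background 0.0%; limma, 544 at an unadjusted p under 0.05, and 7 called with limma-voom), and 1 fell with DRB (background 0.0144%, 690 at an unadjusted p under 0.05). The nascent DRB count was 0 without replicate 3 of DMSO and 10, 3 and 30 without replicates 1, 2 and 3 of DRB. The inhibitors share their DMSO libraries, so each is given on its own. In a direct test after 2 h, 118 member regions were higher and 8 lower with triptolide than with DRB (background 2.3%), and on nascent DNA 0 differed (background 0.00719%; limma, 571 at an unadjusted p under 0.05, and 5 called with limma-voom). The 2 h number moved to between 10 and 77 when any 1 of the 6 libraries was left out, the lowest without replicate 3 of triptolide.

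From nascent to 2 h DNA with DMSO 4 member regions rose and 78 fell in RPM (background 1.22%, median -0.45 against -0.37 over all regions). Scaled to the desert 4 rose and 3 fell, and centred 4 rose and 0 fell, so the number that fell depended on the scaling. Without any 1 of the 6 libraries between 1 and 37 were called, the fewest without replicate 1 of nascent DMSO. The change from nascent to 2 h itself differed from that with DMSO in 7 member regions with triptolide (background 0.0935%) and in 4 with DRB (background 0.0503%). A fit window by window covered 4561213 windows of the whole table. After 2 h with triptolide 736 of 18166 testable member windows (4.05%) rose and 33 (0.182%) fell. Over all windows 1.44% were called higher and 0.979% lower, a background of 2.42% in either direction. For the other contrasts the member windows called were 33 higher and 8 lower for DRB after 2 h (background 0.156%), 1 and 2 for nascent triptolide (0.0608%), 0 and 3 for nascent DRB (0.0241%), and 12 and 166 from nascent to 2 h with DMSO (1.62%).

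In the unbound fraction, with 27970 regions tested and 4798 members among them, triptolide after 2 h had 277 members higher and 75 lower (background 5.29%), a split of 109 and 76 when scaled to the desert and 103 and 104 when centred. DRB after 2 h had 79 and 44 (background 1.34%), or 40 and 47 scaled to the desert. In nascent samples triptolide had 45 higher and 49 lower (background 0.912%), or 19 and 55 when centred, and DRB 83 and 13 (background 0.636%), or 34 and 14 scaled to the desert. From nascent to 2 h with DMSO 0 were called (background 0.0%; limma, 419 at an unadjusted p under 0.05). For triptolide after 2 h, 141 members were higher in both fractions, which is 24.5% of the EdU and 50.9% of the unbound calls, and 17 were lower in both, 50% and 22.7%. Both fractions come from the same samples.

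The regions that fell lay at genes of shorter median length. Regions with no window wholly inside their gene are called past the end here, and their windows may cross that end. After 2 h with triptolide, of 278 such EdU regions 16 rose and 8 fell, with a median of 0.11. Of 3558 wholly inside 435 rose and 16 fell, with a median of 0.39. Over all regions 9.29% were called higher and 0.413% lower in that contrast. With DRB 0 rose and 9 fell past the end, and 30 rose and 3 fell inside. The DRB shares over all regions were 0.377% higher and 0.0935% lower. Coding genes whose region fell after triptolide had a median length of 4914 bp (27 genes) and those whose region rose 19526.5 bp (470 genes), where all tested coding genes had 23713.5 bp. For DRB the medians were 2878.5 bp (12 lower) and 21381.5 bp (30 higher). Unbound, with triptolide after 2 h, 5 rose and 27 fell past the end, and 228 rose and 28 fell inside. Over all unbound regions 4.77% were called higher and 0.529% lower there.

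Polr2b was among the regions that rose with both inhibitors after 2 h. It encodes the second-largest subunit of RNA polymerase II, and its region (chr5:77313001-77314000, inside the gene) stood after 2 h at 1.23, 1.08 and 0.553 RPM with DMSO and at 6.91, 5.90 and 5.85 RPM with triptolide. With DRB it stood at 4.81, 5.97 and 2.61 RPM. Every inhibitor library was above every control, with log2 differences of 2.47 ± 0.35 (SE, limma adjusted p = 8.0e-05) and 1.94 ± 0.35 (adjusted p = 0.0053). The DRB call was lost without replicate 2 of 2 h DRB (adjusted p = 0.065). On nascent DNA it stood at 1.15, 2.02 and 1.06 RPM with DMSO, 2.43, 2.72 and 2.34 with triptolide and 1.89, 2.31 and 2.42 with DRB, and was not called. Unbound, after 2 h, the log2 difference was 2.31 for triptolide and 1.95 for DRB (limma adjusted p = 2.7e-06 and 4.1e-05).

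Of the 22 testable genes of a list on RNA polymerase II elongation, 5 rose with triptolide after 2 h in the EdU fraction, where 9.29% of all regions were called higher: Polr2b, Cdk7 (the serine 5 kinase, 1.53), Supt5 (the large subunit of DSIF, 1.70), Paf1 (of the PAF elongation complex, 1.73) and Mepce (which caps the 7SK RNA that holds P-TEFb inactive, 1.17), as log2 differences. The median of the list was 0.68, against 0.38 over all members, and between 2 and 6 of its genes were called when any 1 library was left out. Cdk9, the target of DRB, and Polr2a, the largest subunit, were not called, at 0.10 and 0.71 (limma adjusted p = 0.94 and 0.50). With DRB the list had 1 call after 2 h, Polr2b.

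Mdm2 had the largest fitted rise with DRB among the coding members. Its region (chr10:117707501-117709000, inside the gene, whose promoter is shown above) stood after 2 h at 1.23, 0.180 and 0 RPM with DMSO and at 5.24, 3.55 and 4.35 with DRB. The log2 difference was 3.08 ± 0.49 (SE, limma adjusted p = 0.0019), and the groups did not overlap. With triptolide it stood at 1.44, 2.17 and 1.06, which overlapped the controls and gave 1.69 ± 0.49 (adjusted p = 0.022). That call was lost in 4 of the 6 fits without 1 library, those without replicates 2 or 3 of 2 h DMSO or replicates 1 or 2 of 2 h triptolide, with adjusted p up to 0.19.

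Other p53 targets called after 2 h with triptolide in the EdU fraction were Rrm2b (a ribonucleotide reductase subunit) with a log2 difference of 1.98 and Phlda3 (an inhibitor of AKT signalling) with 1.41. With Mdm2, 3 of 14 list genes rose with triptolide (1 to 3 without any 1 library) and 1 with DRB, where 9.29% and 0.377% of all regions were called higher, and the list medians were 0.45 and 0.58, against 0.38 and 0.05 over all members. After 2 h with triptolide 0 of the list rose in the unbound fraction and Gadd45a, a stress-induced growth arrest gene, fell (-1.62, limma adjusted p = 0.0033). Unbound with DRB, 2 of the 14 rose in nascent samples (Mdm2, 1.52, and Plk2, 1.04) and 1 after 2 h (Mdm2, 1.61). There 0.504% and 0.969% of all regions were called higher. Without any 1 library 0 to 2 and 0 to 1 of the list were. Wrap53 lies head to head with Trp53, the p53 gene, and encodes a protein of Cajal bodies and telomerase. Its region (chr11:69576001-69578500) stood after 2 h at 0.843, 0.719 and 0.899 RPM with DMSO, 4.37, 6.34 and 6.67 with DRB and 3.17, 2.95 and 3.39 with triptolide. The 3 groups did not overlap, with log2 differences of 2.48 ± 0.42 for DRB and 1.68 ± 0.42 for triptolide (SE, limma adjusted p = 0.003 and 0.0079). Wrap53 also rose in all 4 inhibitor contrasts, of the unbound fraction, by 1.39 to 2.30.

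The largest rises with triptolide after 2 h lay at Tmem51 (a membrane protein), Ppm1j, Rmnd1 and Angptl4 (a secreted inhibitor of lipoprotein lipase). Ppm1j (chr3:104785001-104786000) went from 0.307, 0.360 and 0.553 RPM to 6.62, 3.10 and 4.52, a log2 difference of 2.89 ± 0.38 (SE, limma adjusted p = 4.1e-05). DRB gave 0.874, 1.49 and 1.74 RPM there, below every triptolide library, and triptolide exceeded DRB by 1.61 (limma adjusted p = 0.021). Without replicate 1 of 2 h DRB or any of the 3 triptolide replicates, that direct difference was no longer called, with adjusted p up to 0.13. On nascent DNA Ppm1j had stood at 1.73, 2.02 and 2.91 RPM with DMSO and 1.74, 1.81 and 2.52 with triptolide.

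Tmem51 stood after 2 h at 0.613, 0 and 0.553 RPM with DMSO and 3.17, 4.35 and 5.85 with triptolide (log2 difference 3.04 ± 0.44, limma adjusted p = 8.0e-05). Rmnd1 (chr10:4427501-4429000) was at 0, 0 and 0.138 with DMSO, 0.437, 0 and 0 with DRB and 1.87, 1.09 and 3.19 with triptolide (2.88 ± 0.56, adjusted p = 0.0011). Angptl4 (chr17:33777001-33779000) was at 0.307, 0.120 and 0.277 with DMSO and rose with both, to 2.59, 2.59 and 3.99 with triptolide and 2.18, 3.61 and 2.61 with DRB. Both inhibitors were above every DMSO library at Angptl4, and at Rmnd1 triptolide was above every DMSO and DRB library. Tmem51 stood at 2.62, 2.24 and 2.32 with DRB, also above every DMSO library (2.24 ± 0.44, limma adjusted p = 0.01). That call was lost without replicate 2 of 2 h DMSO or replicates 1 or 3 of 2 h DRB, with adjusted p up to 0.12. Ddit3, a transcription factor of the stress response, stood on nascent DNA at 2.09, 2.72 and 2.16 RPM with triptolide against 0, 0 and 0.794 with DMSO, which did not pass the threshold, and rose after 2 h (2.59 ± 0.48, limma adjusted p = 0.00074).

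Kif15, a mitotic kinesin, was 1 of 8 member regions lower with triptolide than with DRB after 2 h. It stood at 0.576, 0.155 and 0.199 RPM with triptolide and 1.75, 2.24 and 1.52 with DRB (triptolide minus DRB -1.96, limma adjusted p = 0.014). The DMSO libraries, at 0.613, 0.989 and 0.346, overlapped triptolide and lay below every DRB library. The call against DRB was lost without replicate 2 or 3 of triptolide, with adjusted p up to 0.088. The unbound libraries of Kif15 did otherwise: from 0.291, 0.210 and 0.235 RPM with DMSO after 2 h they rose to 1.73, 2.02 and 1.95 with triptolide and 3.15, 1.69 and 2.52 with DRB.

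Ribosomal protein genes had calls in the lower direction and none higher with the inhibitors. They are short and among the most heavily transcribed genes of dividing cells. Of 80 list genes 75 were found among the TSSs, 72 had an S5P peak and 26 had a member region. All but Rps13 of these were testable. After 2 h with triptolide 0 of the 25 rose and 7 fell (Rpl22l1, Rpl23, Rpl31, Rpl34, Rps20, Rps23 and Rps24), where 0.413% of all regions were called lower. The median log2 difference was -1.07, against 0.38 over all members and 0.17 over all regions. Between 5 and 7 were called without any 1 library, and the median then ran from -1.17 to -1.03.

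As a mean over these regions, the 2 h EdU libraries stood at 1.94, 2.09 and 1.63 RPM with DMSO, 0.990, 0.937 and 0.585 with DRB and 0.745, 0.671 and 0.739 with triptolide. Every inhibitor library lay below every control. On nascent DNA the levels were 1.48, 1.55 and 1.15 with DMSO, 0.631, 0.930 and 0.573 with DRB and 0.756, 0.580 and 0.509 with triptolide, also without overlap. With DMSO the list had a median of 0.36 from nascent to 2 h, where all members had -0.45, and 1 gene (Rpl22l1) rose, a call lost whichever of the 6 libraries was left out.

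**Figure D5:**
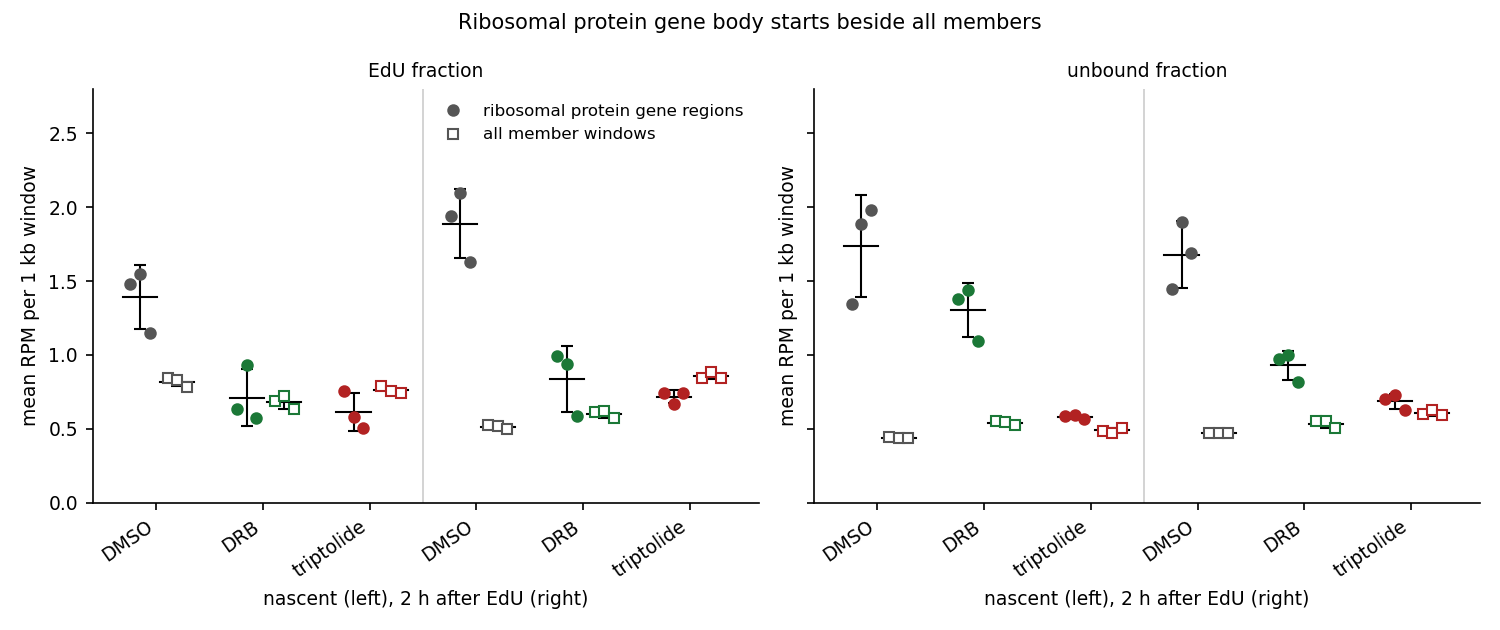
Mean RPM per 1 kb window (y axis) over the member regions of ribosomal protein genes (filled circles) and over all members (open squares), by fraction, time and treatment (x axis); points are libraries, lines the mean and bars the SD of 3. For ribosomal protein genes after 2 h the DMSO libraries of the EdU fraction lie at 1.63 to 2.09 RPM, the triptolide libraries at 0.671 to 0.745 RPM and the DRB libraries at 0.585 to 0.990 RPM.

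Rps23, of the small ribosomal subunit, is 1611 bp long, so its 3 windows (chr13:90926001-90928000) lay past the gene. After 2 h they stood at 3.47, 4.80 and 3.23 RPM with DMSO, 0.437, 0.746 and 0.290 with DRB and 0.288, 0.103 and 0.532 with triptolide. Neither inhibitor overlapped the controls, and the log2 differences were -2.49 ± 0.42 for DRB and -2.93 ± 0.42 for triptolide (SE, limma adjusted p = 0.003 and 8.0e-05). Unbound, in nascent samples, Rps23 stood at 3.24, 6.81 and 5.18 with DMSO, 3.27, 1.32 and 1.29 with DRB and 0.303, 0.234 and 0.325 with triptolide. The unbound log2 differences for triptolide were -3.25 ± 0.30 in nascent and -2.49 ± 0.30 in 2 h samples (SE, limma adjusted p = 1.2e-07 and 5.9e-06).

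Rps20, also of the small subunit, had 1 window (chr4:3831001-3832000), not wholly inside its gene, with more than 1 gene within reach of the TSS. It stood at 2.31, 1.01 and 2.91 RPM on nascent DNA with DMSO and at 0 in all 3 DRB libraries, where 3 reads would have been 1.42, 2.31 and 0.907 RPM. It was the member region called lower with nascent DRB, where 0.0108% of all regions were (limma adjusted p = 0.005, and 0.054 without replicate 3 of nascent DMSO), and no fold is given since the controls are near that floor. After 2 h it stood at 4.60, 6.47 and 2.77 with DMSO and 0.864, 0 and 0.266 with triptolide, a log2 difference of -3.14 ± 0.48 (limma adjusted p = 0.0001). The DRB libraries after 2 h were at 0.874, 0.373 and 0.580 (-2.47 ± 0.48, adjusted p = 0.01), a call lost without replicate 2 of 2 h DMSO or replicates 2 or 3 of 2 h DRB, with adjusted p up to 0.086.

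Inside their genes lay the windows of Rps24, Rpl31 and Rpl23. Rps24 stood after 2 h at 2.61, 1.98 and 1.24 RPM with DMSO and 0.288, 0.310 and 0 with triptolide, while DRB (0.655, 0.933 and 1.30) overlapped the controls. Its log2 difference was -2.33 with triptolide (limma adjusted p = 0.0028). Rpl34, with windows wholly inside its gene and others not, stood at 0.920, 2.28 and 2.40 with DMSO and 0.384, 0.207 and 0.266 with triptolide (-1.90, adjusted p = 0.0037). The calls of Rpl31 (-1.86, adjusted p = 0.028) and Rpl23 (-1.42, adjusted p = 0.025) were each lost in 4 of the 6 fits without 1 library, with adjusted p up to 0.18 and 0.13. For Rpl31 these were the fits without replicates 1 or 3 of 2 h DMSO or 1 or 2 of 2 h triptolide, and for Rpl23 those without replicates 1 or 3 of either group.

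With DRB 3 of the 25 fell after 2 h in the EdU fraction (Rpl23, Rps20 and Rps23, where 0.0935% of all regions were called lower), and 1 or 2 without any 1 library. Unbound, 9 fell with triptolide and 2 with DRB in nascent samples, where 0.311% and 0.132% of all regions were called lower, and 12 and 7 in 2 h samples, where 0.529% and 0.368% were. The unbound medians were -1.04, -0.15, -0.89 and -0.44, and 0 of the 25 rose in any of these contrasts. Without any 1 library the 4 counts ran from 4 to 12, 0 to 2, 9 to 13 and 4 to 6.

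Other genes that fell with triptolide were Mrpl17, H2aj and Slc25a1, chosen by the size of their change. Mrpl17, of the large subunit of the mitochondrial ribosome, stood after 2 h over 5 windows (chr7:105806501-105809500, inside the gene) at 1.84, 1.58 and 1.22 RPM with DMSO, 0.0874, 0.299 and 0.290 with DRB and 0.115, 0.0621 and 0.106 with triptolide. The log2 difference was -2.37 ± 0.42 for triptolide (SE, limma adjusted p = 0.00044). The nascent levels, at 0.577, 0.707 and 0.529 with DMSO, 0.567, 1.08 and 0.605 with DRB and 0.626, 0.362 and 0.216 with triptolide, overlapped. H2aj, a histone H2A variant of 1827 bp, had no window wholly inside the gene. It stood after 2 h at 1.84, 1.80 and 1.66 with DMSO, 0.437, 0 and 0 with DRB and 0, 0.310 and 0 with triptolide (triptolide -2.62 ± 0.56, limma adjusted p = 0.0025). Slc25a1, the mitochondrial citrate carrier, fell in the unbound fraction after 2 h from 2.46, 3.66 and 2.23 RPM to 0, 0.630 and 0.270 with triptolide (-2.62 ± 0.32, limma adjusted p = 6.5e-06).

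The other gene lists had few calls after 2 h in the EdU fraction, where 9.29% of all regions were called higher with triptolide and 0.377% with DRB, and their counts are given as a description only. Of 19 DNA replication genes 2 rose with triptolide (Chaf1a and Chaf1b, of the chromatin assembly factor that loads histones behind the fork, at 1.61 and 1.63), with a list median of 0.86, and 0 to 2 were called without any 1 library. Mcm7, of the replicative helicase, rose with DRB (1.62), a call lost whichever library was left out. Of 10 pluripotency genes Klf5 rose with triptolide (median 0.70), and Klf4 was not called, at 0.61 (limma adjusted p = 0.62). Of 31 splicing and hnRNP genes Snrpd2, of the Sm core, rose by 2.72 (median -0.08), and of 12 housekeeping and glycolysis genes Gpi1, the glycolytic isomerase, rose by 2.27 (median 0.24). Of 11 immediate early genes Ier5 rose (median -0.06), of 12 Polycomb-bound regulators Cdx2 and Lhx2 rose (median 0.39), and of 17 translation factors 0 were called in either direction with triptolide or DRB (median -0.07 for triptolide). Pou5f1, Nanog, Sox2, Myc, Actb, Gapdh, Ncl, Hspa8 and Eef2 had no member window.

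The highest mean over the 18 EdU libraries was at Cdc34, a ubiquitin-conjugating enzyme, and at Hsp90ab1, a cytosolic chaperone, each on 1 window. Cdc34 stood at 6.34, 3.53 and 5.55 RPM on nascent DNA with DMSO and at 3.07, 1.08 and 0.277 after 2 h. Hsp90ab1 stood at 2.88, 3.03 and 2.65, then 2.15, 1.08 and 2.21. Neither was called with an inhibitor in the EdU fraction, and Hsp90ab1 rose in the unbound fraction of nascent samples with DRB (2.23, limma adjusted p = 0.0034). Zfpl1, a Golgi zinc finger protein, fell from 3.17, 2.52 and 2.65 on nascent DNA to 0.307, 1.08 and 0.138 after 2 h with DMSO (-2.19 ± 0.41, limma adjusted p = 0.016). Bcl2l13 and Zfp367 were read at 0 in all 3 DMSO libraries after 2 h and called lower there (limma adjusted p = 0.017 each), and no fold is given for them. These 3 falls were all lost when centred on the median region, and that of Zfpl1 also when scaled to the desert. Without replicate 1 of nascent DMSO all 3 were lost, and that of Zfp367 also without replicate 2 of nascent DMSO or of 2 h DMSO, with adjusted p up to 0.072.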

How the data were processed

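Per the submitters' processing notes, Bowtie2 2.2.6.2, Trim Galore 0.4.2 and mm10 were used. These notes name no peak caller. Per the file headers, the deposited inhibitor table holds log2(RPM + 1) in 1 kb windows every 500 bp, computed by the authors. RPM was recovered by undoing the log2, and every library then held whole reads (100% of values, to within 0.1 read). Positions are all that the deposited peak and TSS lists give. Reads carry no molecular identifiers, so floors cover counting error only.

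Mean levels and their ratios were compared by two-sided exact permutation over libraries (Python 3.11.15, scipy 1.17.1). Regions and windows were tested with limma 3.58.1 with a trend (R 4.3.3), on log2(RPM + 0.25) for regions and on the deposited log2(RPM + 1) for windows. Features needed a read in 3 libraries, and p-values were adjusted by Benjamini-Hochberg over all features tested, at 0.05. The fits were tested on simulated data. Named coding genes were, for each EdU contrast, the 4 largest changes each way past the threshold (the 3 smallest p where none passed), the 8 highest means and 12 fixed genes. Genes of the lists, and those named in unbound contrasts, were added. The members and lists were chosen with earlier results of these data known. Alternatives covered the scaling, pseudocount, filters, window overlap, limma-voom, a replicate block and each library left out.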

Additional observations from a re-analysis of the deposited data

Results flagged for a closer look

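The change from nascent to 2 h differed between an inhibitor and DMSO, in a test of that difference (limma), for 4 member regions with DRB (background 0.0503%) and 7 with triptolide (background 0.0935%). For DRB these included Smad7, an inhibitor of TGF-beta signalling, with a log2 difference of changes of 4.46 (adjusted p = 0.007), and Cdx2, a caudal homeobox factor, with 3.80 (adjusted p = 0.007). Smad7 stood on nascent DNA at 5.19, 3.03 and 2.38 RPM with DMSO and 0, 2.31 and 1.51 with DRB, and after 2 h at 0.307, 0.360 and 0.277 with DMSO and 4.37, 4.11 and 2.03 with DRB. Cdx2 stood on nascent DNA at 0.865, 1.26 and 1.19 with DMSO and 0, 0 and 0.454 with DRB, and after 2 h at 0.307, 0.180 and 0 with DMSO and 1.09, 1.31 and 1.16 with DRB. In every DRB library both regions were below every control on nascent DNA and above every control after 2 h. The lower nascent level was not itself called for either region. Both calls of the difference of changes held without any 1 of the 12 libraries.

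For triptolide these included Klf5, a Krüppel-like factor of the pluripotency network, with 4.44 (adjusted p = 0.032), Smad7 with 3.62 (0.037), Dennd4b, a Rab exchange factor, with 2.86 (0.037), and Ppm1j with 2.99 (0.03). Klf5 rests on 1 window, at 2.31, 1.01 and 1.06 RPM in nascent DMSO, 0, 0 and 1.08 in nascent triptolide, 0, 0.719 and 0 in 2 h DMSO and 2.88, 1.24 and 2.39 in 2 h triptolide. The Klf5 call was kept in 2 of 12 fits without 1 library, that of Dennd4b in 2, that of Smad7 in 1 and that of Ppm1j in 7.

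In 3 measures every library moved one way at one time and the opposite way at the other. The difference between the times was 0.49 on the log2 scale for the mean level with DRB, 1.01 for the members over gene desert with triptolide and 0.94 for EdU over unbound with triptolide. These differences between times were not tested.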

How the results depend on the processing

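Counts are member regions called in the EdU fraction unless said otherwise; the causes were not tested. The replicate block gave 1 for nascent triptolide and 7 for nascent DRB, and 5 windows for nascent DRB. Same-numbered EdU libraries correlated at -0.034 to 0.044 in their deviations. Unbound ones correlated at -0.035 to 0.096 (median 0.028, against -0.015 for other pairs). With a median of 4 reads per member region in an EdU library, counting noise keeps such correlations low. The check thus cannot tell whether libraries of the same number shared a batch. Replicate 3 was the deepest library of every group. Paired level tests have the same mean difference by construction. Pseudocount 1 gave 1 (nascent triptolide), 9 (nascent DRB), 198 (2 h triptolide against DRB), 15 and 2 (differences of changes, triptolide and DRB) and 62 (unbound, nascent triptolide). Centring gave 1 (nascent triptolide), 373 (2 h triptolide), 64 (2 h triptolide against DRB), 4 (2 h against nascent DMSO), 0 and 2 (differences of changes) and 207 (unbound, 2 h triptolide). limma-voom gave 7 (nascent triptolide), 2 (nascent DRB), 5 and 245 (triptolide against DRB, nascent and 2 h), 250 (2 h against nascent DMSO), 122 and 11 (differences of changes), and 60 and 50 (unbound, nascent triptolide and DRB). A mean of at least 0.5 RPM gave 3 (nascent DRB), 81 (2 h DRB), 252 (2 h triptolide against DRB), 180 (2 h against nascent DMSO), 45 and 22 (differences of changes), and in the unbound fraction 167 (nascent triptolide), 157 (nascent DRB) and 195 (2 h DRB). Desert scaling gave 9 (nascent DRB), 509 (2 h triptolide against DRB), 7 (2 h against nascent DMSO), 88 and 23 (differences of changes), and in the unbound fraction 48 (nascent DRB) and 185 (2 h triptolide). Pseudocount 0.1 gave 81 (2 h triptolide against DRB) and 1 (triptolide difference of changes). No filter gave 2 (DRB difference of changes) and 61 (unbound, nascent DRB). Of windows, taking non-overlapping ones, which are fewer, gave 0 (nascent triptolide), 1 (nascent DRB), 392 (2 h triptolide), 26 (2 h DRB) and 84 (2 h against nascent DMSO). Pseudocount 0.25 gave 1, 482, 16 and 114 for nascent triptolide, 2 h triptolide, 2 h DRB and 2 h against nascent DMSO, and a read in 6 libraries gave 5 (nascent DRB).

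Without any 1 library, which leaves fewer samples, the regions called ran from 0 to 3 (nascent triptolide), 0 to 30 (nascent DRB), 323 to 427 (2 h triptolide), 14 to 35 (2 h DRB), 0 to 18 and 10 to 77 (triptolide against DRB, nascent and 2 h), 1 to 37 (2 h against nascent DMSO), and 0 to 6 and 2 to 13 (differences of changes). In the unbound fraction they ran from 27 to 127 (nascent triptolide), 21 to 138 (nascent DRB), 165 to 247 (2 h triptolide), 59 to 86 (2 h DRB) and 0 to 8 (2 h against nascent DMSO). Windows ran from 0 to 4, 0 to 40, 338 to 452, 9 to 21 and 43 to 247. Log2 differences of levels that changed sign were: over desert, 2 h DRB (-0.084 to 0.076), 2 h against nascent (-0.138 to 0.021) and unbound 2 h DRB (-0.011 to 0.079); downstream over upstream, 2 h DRB (-0.029 to 0.00696), 2 h against nascent (-0.032 to 0.00384) and unbound nascent triptolide (-0.016 to 0.00923); members over S5P-free, 2 h triptolide (-0.032 to 0.038) and 2 h DRB (-0.019 to 0.054); EdU over unbound, 2 h DRB (-0.073 to 0.066); past over inside, nascent DRB (-0.054 to 0.023). Without windows under other peaks, 2 h DRB over desert was -0.026 and nascent DRB past over inside 0.010. Of 1916 alternatives to 188 calls of named genes, 1363 kept the call, 553 lost it and 0 reversed it. A region of 1 window often held under 3 reads, which limits single genes.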
